A study of Mus musculus with 6 samples.

Results

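Microglia are the resident macrophages of the brain, and perivascular macrophages line its vessels and meninges. The genes described here are 31 symbols that mark these cells, taken by name from the 24062 gene symbols counted in mouse ventral dentate gyrus. They cover homeostatic microglial, complement C1q, phagocytic and perivascular macrophage genes, and all 31 were found. Of these, 30 had enough counts to be tested, among 14058 genes in all, and Pf4 did not. The samples were 3 libraries from male C57black 6 mice given chronic restraint stress (CRS), a repeated confinement used as a psychological stressor, and 3 libraries from unstressed male controls of the same strain (Ctrl). The series addresses the glial cystine/glutamate exchanger xCT in resilience to stress, and CRS is compared with Ctrl. The study's design text calls the replicates biological, and the number of animals behind each library is not stated.

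Microglia survey the tissue with fine processes, and they find damage and active synapses through purinergic and chemokine receptors. They depend on the growth factor receptor CSF1R, tag material for removal with the complement protein C1q, and clear it through the TREM2 and Fc receptor pathways into lysosomes. Perivascular macrophages arise from related precursors but sit outside the brain tissue proper, and they carry scavenger receptors such as CD163 and the mannose receptor.

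Gene counts summed to between 8575540 and 9626686 per CRS library and between 8305753 and 10107953 per Ctrl library. Values are given as CPM, counts as a rate of the library total, with that total scaled by the trimmed mean of M values (TMM). CRS replicate 1 stood apart from the other libraries. The summed level of 8 choroid plexus markers was 4786 CPM in it, against 31.1 and 27.6 CPM in CRS replicates 2 and 3 and 23.2 to 26.1 CPM in Ctrl. 6 ependymal markers summed to 87.9 CPM in it and to 6.96 to 10.7 CPM in the other 5 libraries. 7 striatal neuron markers summed to 618 CPM in it and to 70.8 to 98.6 CPM elsewhere, while 6 granule neuron markers summed to 199 CPM in it and to 319.9 to 473.8 CPM elsewhere. The median of the microglial members and the values of Mrc1 and Cd163 are given with and without it.

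The 3 defining microglial markers were each counted in all 6 libraries. They are members taken by name, so this does not check the label for the other members. The lowest count of any of the 3 was 150, for Tmem119 in Ctrl replicate 1. The perivascular markers Mrc1 and Cd163 were also counted in every library, with 46 to 123 and 11 to 37 counts. The summed level of 13 blood leukocyte markers was 1.16 to 4.47 CPM in CRS and 1.70 to 2.34 CPM in Ctrl, and none of the 13 had enough counts to be tested. The T cell genes Cd3e and Cd3g were listed at 0 throughout. Of 7 red blood cell markers, Alas2, an enzyme of heme synthesis, was at 3.73 to 5.35 CPM in CRS and 2.25 to 8.72 CPM in Ctrl. The 6 globin genes were listed at 0 in every library, and whether the counting set these values was not tested, so nothing is read from them.

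No member passed the threshold in either direction. A gene was called at a Benjamini-Hochberg adjusted p under 0.05 by edgeR's quasi-likelihood test, and 0.0285% of the 14058 tested genes were called, 4 lower and 0 higher. At an unadjusted p under 0.05, 3 of the 30 tested members were counted, or 10%, beside 8.71% of all tested genes, so their share lay near that of all genes. These were Laptm5, higher in CRS, beside 3.86% of all tested genes, and Mrc1 and Cd163, lower in CRS, beside 4.85%. The 6 libraries separated by group, with all CRS libraries on one side of all Ctrl libraries, for 2 of the 30 tested members, Mrc1 and Cd163, or 6.67%. Among all tested genes 7.84% lay apart with CRS lower and 6.76% with CRS higher. DESeq2, which called 0.762% of its 14043 tested genes, called none of the members. Other fits called no member either, beside 0.00711% of all tested genes with limma-voom, 0.021% with no filter on low counts and 0.0284% with a filter of 1 CPM in 3 libraries. Standard errors (SE) beside fold changes are those of limma-voom.

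Set apart by cell type, the 28 microglial and general phagocyte members had a median log2 fold change of 0.11, with 22 positive and 6 negative, beside a median of 0.004 and 51.0% positive over all tested genes. Both tested perivascular members were negative, at -0.81 for Mrc1 and -0.90 for Cd163, and the third, Pf4, was counted 3 times in CRS and 13 times in Ctrl. The small positive balance of the 28 rested on a few libraries. Without CRS replicate 3 it turned to 12 positive and 16 negative with a median of -0.03, and without Ctrl replicate 3 it was 15 positive and 13 negative. Without CRS replicate 1 the median was 0.15, without Ctrl replicate 1 it was 0.04, and without Ctrl replicate 2 it was 0.25. In bulk tissue, fewer cells of a type and less RNA per cell cannot be told apart.

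**Figure D1:**
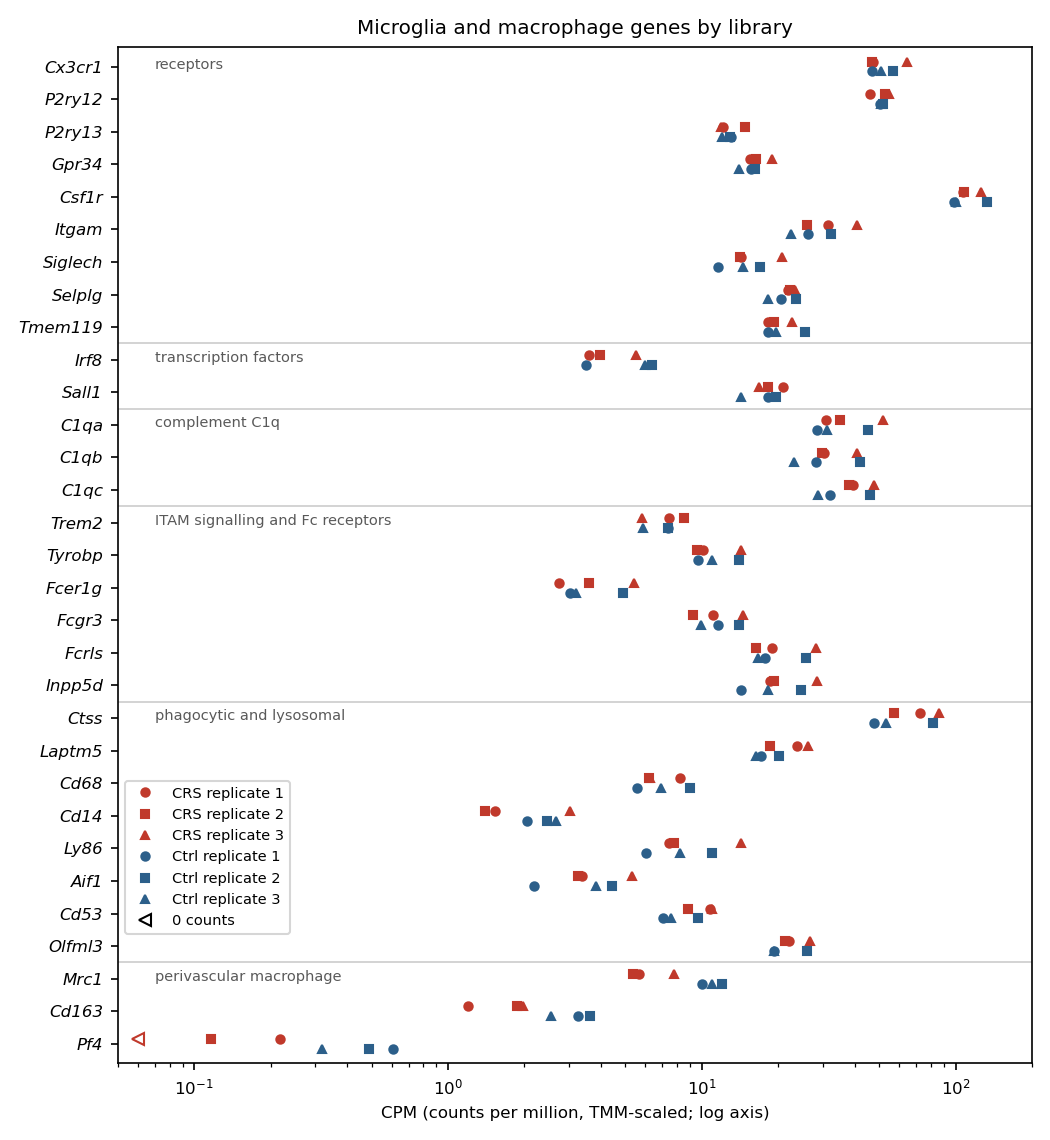
Level of each of the 31 genes in each library, in CPM on a log axis, grouped by role, with CRS points in red above Ctrl points in blue. The colors intermix for the microglial genes and separate for Mrc1, Cd163 and Pf4, where all 3 CRS libraries lie below all 3 Ctrl libraries. For Pf4, which was not tested, this rests on 2, 1 and 0 counts in CRS and 5, 5 and 3 counts in Ctrl. Among all tested genes 7.84% lay apart with CRS lower.

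Among the members, the perivascular macrophage genes differed most between the groups, though none passed. Mrc1 encodes the mannose receptor CD206, which takes up glycoproteins, and lies on chromosome 2 from 14229392 to 14332057 (GRCm38, plus strand). It was measured at 5.68, 5.36 and 7.79 CPM in CRS replicates 1, 2 and 3, against 10.05, 12.06 and 10.96 CPM in Ctrl replicates 1, 2 and 3. The highest CRS library lay below the lowest Ctrl library. CRS over Ctrl, it differed by -0.81 on the log2 scale (SE 0.18). edgeR's quasi-likelihood test gave an unadjusted p of 0.00163, adjusted to 0.250. Left-out libraries moved it between -0.99 and -0.71, with adjusted p-values of 0.11 to 0.741 over all alternatives. Leaving out CRS replicate 1 gave -0.74 (adjusted p = 0.133).

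Cd163, the scavenger receptor for haptoglobin-bound hemoglobin, lies on chromosome 6 from 124304656 to 124330527. Its levels were 1.20, 1.86 and 1.97 CPM in CRS and 3.27, 3.63 and 2.55 CPM in Ctrl. The groups again did not overlap, on counts of 11 to 19 in CRS and 24 to 37 in Ctrl. Its difference was -0.90 on the log2 scale (SE 0.29; unadjusted p = 0.0116, adjusted p = 0.447 by edgeR), or -0.71 when CRS replicate 1 was left out. Pf4, which encodes the chemokine platelet factor 4 and lies on chromosome 5 from 90772435 to 90773383, had 2, 1 and 0 counts in CRS and 5, 5 and 3 counts in Ctrl. The ratio of the summed counts, CRS over Ctrl, was 0.235 with an exact 95% interval of 0.0429 to 0.855, which covers counting error only. The 3 counts that a count of 0 allows equal 0.294 to 0.363 CPM in these libraries, so Pf4 sat under that limit in every CRS library.

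The 250 bases before and 50 after the start site of 5 members are shown, as RefSeq gives them on GRCm38.p6. The 3 perivascular genes were taken because they lay on the same side together. C1qb and C1qc were taken because they varied together between libraries, as most of the tested members did. Capitals mark GAGGAA or its reverse complement TTCCTC, the purine-rich core that the macrophage transcription factor PU.1 is known to recognize.
Mrc1 (chr2:14229164-14229463, plus strand): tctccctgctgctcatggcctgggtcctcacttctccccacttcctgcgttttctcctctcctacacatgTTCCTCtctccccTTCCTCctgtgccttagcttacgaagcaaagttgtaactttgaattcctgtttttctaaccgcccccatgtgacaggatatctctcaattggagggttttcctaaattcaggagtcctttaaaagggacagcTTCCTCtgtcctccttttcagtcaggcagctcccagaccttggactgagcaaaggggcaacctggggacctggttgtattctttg
Cd163 (chr6:124304401-124304700, plus strand): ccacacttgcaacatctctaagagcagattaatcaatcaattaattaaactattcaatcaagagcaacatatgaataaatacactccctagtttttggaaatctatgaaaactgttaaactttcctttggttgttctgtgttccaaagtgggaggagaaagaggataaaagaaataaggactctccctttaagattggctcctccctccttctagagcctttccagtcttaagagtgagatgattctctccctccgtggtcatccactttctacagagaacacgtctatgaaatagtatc
Pf4 (chr5:90772185-90772484, plus strand): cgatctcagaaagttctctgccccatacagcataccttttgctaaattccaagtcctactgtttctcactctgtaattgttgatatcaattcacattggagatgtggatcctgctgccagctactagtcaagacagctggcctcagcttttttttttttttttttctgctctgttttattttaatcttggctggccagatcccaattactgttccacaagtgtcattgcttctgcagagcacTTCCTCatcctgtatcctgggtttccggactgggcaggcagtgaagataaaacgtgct
C1qb (chr4:136886151-136886450, minus strand): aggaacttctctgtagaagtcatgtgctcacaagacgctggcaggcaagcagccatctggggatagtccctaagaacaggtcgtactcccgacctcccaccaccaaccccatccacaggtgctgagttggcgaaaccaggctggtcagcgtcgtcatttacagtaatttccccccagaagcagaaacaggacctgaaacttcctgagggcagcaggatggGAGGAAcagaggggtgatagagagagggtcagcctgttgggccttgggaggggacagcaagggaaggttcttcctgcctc
C1qc (chr4:136892865-136893164, minus strand): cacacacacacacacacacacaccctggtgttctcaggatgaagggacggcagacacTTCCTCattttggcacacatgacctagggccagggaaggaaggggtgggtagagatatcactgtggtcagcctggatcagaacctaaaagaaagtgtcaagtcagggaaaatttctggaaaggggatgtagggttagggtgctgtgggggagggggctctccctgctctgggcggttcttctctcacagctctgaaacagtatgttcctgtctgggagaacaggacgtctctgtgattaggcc

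The Mrc1 window held 3 copies of the 6 letters, all on the reverse strand, and the Cd163 window held 0. Pf4, C1qb and C1qc held 1 each. RefSeq promoters were matched for 24 of the 31 members, in 28 windows, and 17 of the windows, or 60.7%, held GAGGAA on either strand. The share was 26.3% of 13465 windows of tested genes and 28.3% of all 32851 windows. A match of letters describes the sequence only.

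Within each library the perivascular genes were set against the microglial ones, a ratio chosen after its values were seen and given without a test. Mrc1 amounted to 12%, 11.4% and 12.1% of the Cx3cr1 level, both in CPM, in CRS replicates 1, 2 and 3. In Ctrl replicates 1, 2 and 3 it amounted to 21.5%, 21.2% and 21.5%. With Cx3cr1 as the denominator, the ratio varied by less inside each group than between the groups. Mrc1 rested on 46 to 123 counts per library. Ratios of Mrc1 to other single members were not taken, so how far the narrow spread depends on Cx3cr1 was not tested. The 3 perivascular members summed to 1.14 ± 0.0557% of the other 28 in CRS and 2.27 ± 0.184% in Ctrl (SD, n = 3 each).

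Other genes of border macrophages were counted from a separate list of 14, of which 7 had enough counts to be tested. F13a1, a coagulation factor subunit made by these cells, was at 2.40, 2.79 and 2.81 CPM in CRS and 3.75, 5.0 and 5.53 CPM in Ctrl. On the log2 scale F13a1 differed by -0.84 (SE 0.23; adjusted p = 0.342). Lyve1, a hyaluronan receptor, was at 0.764, 1.05 and 0.727 CPM in CRS and 1.09, 1.08 and 2.34 CPM in Ctrl, a difference of -0.83 on the log2 scale (SE 0.41; adjusted p = 0.645). Both were apart with CRS lower, beside 7.84% of all tested genes, though for Lyve1 the nearest libraries differed by under 0.1 CPM. The next by p, the copper carrier gene Cp, overlapped between the groups, and the median of the 7 was -0.13, with 2 positive and 5 negative. The groups also overlapped for Stab1 at -0.07, Ms4a6b at -0.13, Dab2 at 0.19 and Cd36 at 0.34. None of the 7 passed.

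Markers of other cells at the brain border were measured beside these. Of 8 fibroblast markers, 0 passed and 3 were apart with CRS lower, beside 7.84% of all tested genes. The list's median log2 fold change was -0.42. The collagen gene Col1a2 was at 9.20 to 12.2 CPM in CRS and 15.1 to 18.4 CPM in Ctrl. The summed fibroblast level was 50.8 to 111.4 CPM in CRS and 79.8 to 110.2 CPM in Ctrl, and Dcn alone ran from 9.93 to 68.7 CPM in CRS. The 9 endothelial and mural markers had a median of -0.09, and 2 of them were apart with CRS lower. Together the 9 summed to 232.8 to 272.3 CPM in CRS and 235.8 to 277.1 CPM in Ctrl. Astrocyte markers, with a median of -0.20, were apart with CRS lower for 4 of 8, beside the same 7.84% of all tested genes. All fibroblast, endothelial and mural markers were counted in every library, and the part of these cells in the perivascular macrophage values was not tested.

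**Figure D2:**
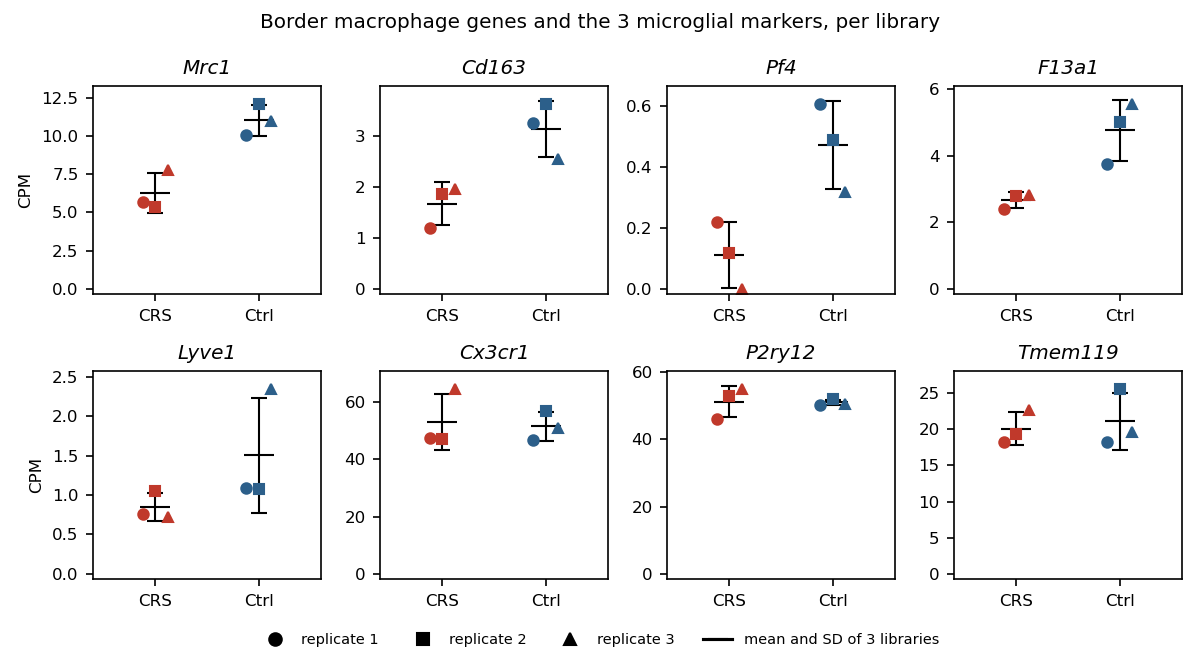
CPM of 5 border macrophage genes and the 3 microglial markers in each library, with CRS on the left and Ctrl on the right of each panel, symbols for replicates, and bars for mean ± SD of 3 libraries. Mrc1 lies between 5.36 and 7.79 CPM in CRS and between 10.05 and 12.06 CPM in Ctrl, while Cx3cr1, P2ry12 and Tmem119 overlap between the groups.

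The defining microglial receptors showed no separation. Cx3cr1, the receptor for the neuronal chemokine fractalkine, lies on chromosome 9 from 119901616 to 120069879. It was at 47.5, 46.9 and 64.3 CPM in CRS replicates 1, 2 and 3 and at 46.7, 56.9 and 50.97 CPM in Ctrl replicates 1, 2 and 3. CRS replicate 3 was highest and the other CRS libraries lay inside the Ctrl range. The log2 fold change was 0.04 (SE 0.13) and the 95% interval of limma-voom ran from -0.28 to 0.33.

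P2ry12, the ADP receptor that directs microglial processes, lies on chromosome 3 from 59216272 to 59262871. It was the steadiest of the 30 tested members by edgeR's coefficient of biological variation, at 8.46%. Its levels were 46.1, 52.9 and 54.9 CPM in CRS and 50.4, 52.0 and 50.7 CPM in Ctrl. The Ctrl libraries lay inside the CRS range. On the log2 scale P2ry12 differed by 0.01 (SE 0.09; 95% interval -0.19 to 0.20), and with library totals as the only scaling it was -0.01. P2ry13, a second ADP receptor whose gene is 5389 bases away on the same strand, was at 11.9 to 14.8 CPM in CRS and 12.02 to 13.1 CPM in Ctrl.

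Tmem119, a transmembrane protein used as a microglia-specific marker, lies on chromosome 5 from 113793729 to 113800516. It was at 18.2, 19.3 and 22.6 CPM in CRS and at 18.2, 25.5 and 19.6 CPM in Ctrl, with a log2 fold change of -0.07 (SE 0.15) and an interval of -0.41 to 0.27. The highest value belonged to a Ctrl library. Among these 3 markers the intervals leave room for differences of up to 0.41 on the log2 scale.

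The other surface receptors overlapped as well. Csf1r, the receptor for CSF1 and IL-34 on which microglia depend for survival, was at 107.1, 107.5 and 125.5 CPM in CRS and 98.3, 133.4 and 100.6 CPM in Ctrl. Itgam, the CD11b chain of complement receptor 3, was at 31.3, 26.0 and 40.7 CPM in CRS and 26.2, 32.2 and 22.6 CPM in Ctrl, a log2 fold change of 0.28 (SE 0.18) that ran from 0.091 to 0.43 with 1 library left out. The lysophospholipid receptor gene Gpr34, the lectin gene Siglech and the selectin ligand gene Selplg had log2 fold changes of 0.15, 0.19 and 0.12. Over the 9 receptors the adjusted p-values were 0.744 or more. Annotated exons on the opposite strand overlap those of Cx3cr1, P2ry12 (by Med12l) and Csf1r (by Hmgxb3), and without a stated strand setting for the counting the reads of these pairs cannot be told apart. Itgam shares exons with the annotated gene Gm49368 on its own strand.

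The 2 transcription factor genes had unlike spreads. Sall1, which keeps microglia in their homeostatic state, was at 21.0, 18.3 and 16.8 CPM in CRS and 18.2, 19.6 and 14.3 CPM in Ctrl. Irf8, a factor of the myeloid lineage, was at 3.60, 3.96 and 5.51 CPM in CRS and 3.51, 6.37 and 5.96 CPM in Ctrl. The log2 fold change of Sall1 was 0.11 (SE 0.15). That of Irf8 was -0.28 (SE 0.28) and ran from -0.50 to -0.12 with 1 library left out.

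The 3 C1q genes, whose products assemble into the first component of the classical complement pathway, form a cluster on chromosome 4. C1qb runs from 136880129 to 136886187, C1qc from 136889804 to 136893065 and C1qa from 136895917 to 136898803, all on the minus strand, with gaps of 3616 and 2851 bases. C1qa was at 31, 35.2 and 51.7 CPM in CRS replicates 1, 2 and 3 and at 28.4, 45.2 and 31.1 CPM in Ctrl replicates 1, 2 and 3. C1qb was at 30.3, 29.7 and 41.0 CPM in CRS and 28.1, 41.9 and 23.1 CPM in Ctrl. C1qc was at 39.5, 38.1 and 47.8 CPM in CRS and 32.0, 46.2 and 28.6 CPM in Ctrl. For each of the 3, CRS replicate 3 and Ctrl replicate 2 were the highest libraries of their groups. The log2 fold changes were 0.17 (SE 0.22), 0.12 (SE 0.22) and 0.23 (SE 0.17), and without CRS replicate 3 those of C1qa and C1qb turned to -0.08 and -0.05. That of C1qb was also -0.05 without Ctrl replicate 3. Without Ctrl replicate 2 the values of C1qa, C1qb and C1qc were 0.41, 0.41 and 0.47.

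A group of 6 members for immunoreceptor tyrosine-based activation motif (ITAM) signalling and Fc receptors ran at lower levels than the C1q genes. Trem2, a lipid-sensing receptor, was at 7.42, 8.50 and 5.82 CPM in CRS and 7.38, 7.35 and 5.85 CPM in Ctrl. Its adaptor gene Tyrobp, for DAP12, was at 10.2, 9.55 and 14.2 CPM in CRS and 9.68, 14.02 and 10.96 CPM in Ctrl. Trem2 was lowest in CRS replicate 3, where Tyrobp was highest. Fcer1g, the Fc receptor gamma chain, was at 2.73 to 5.40 CPM in CRS and 3.03 to 4.90 CPM in Ctrl, and Inpp5d, the phosphatase SHIP1, at 18.6 to 28.5 CPM in CRS and 14.3 to 24.6 CPM in Ctrl. Fcgr3, an IgG receptor with close relatives in the genome whose share in its counts was not measured, and Fcrls had log2 fold changes of -0.03 and 0.08. The median of the 6 was 0.07.

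Of the 8 phagocytic and lysosomal members, Laptm5 had the smallest unadjusted p. This lysosomal membrane protein was at 23.7, 18.6 and 26.2 CPM in CRS and 17.1, 20.1 and 16.4 CPM in Ctrl, so CRS replicate 2 lay inside the Ctrl range. The difference was 0.35 on the log2 scale (SE 0.15; unadjusted p = 0.0396, adjusted p = 0.549 by edgeR). The tetraspanin gene Cd53 followed, at 10.8, 8.85 and 11.01 CPM in CRS and 7.02, 9.71 and 7.56 CPM in Ctrl, a log2 fold change of 0.33 (SE 0.17; adjusted p = 0.645). Ctss, the lysosomal protease cathepsin S, was at 72.4, 57.4 and 86.2 CPM in CRS and 47.6, 81.7 and 53.0 CPM in Ctrl. Aif1, which encodes the cytoskeletal protein IBA1, was at 3.38, 3.26 and 5.30 CPM in CRS and 2.18, 4.41 and 3.83 CPM in Ctrl. Cd68, a lysosomal glycoprotein of phagocytes, Ly86, a partner of a Toll-like receptor relative, and Olfml3, a secreted matrix protein, had log2 fold changes of -0.07, 0.22 and 0.11. Cd14, the lipopolysaccharide co-receptor, was at 1.40 to 3.01 CPM in CRS and 2.06 to 2.66 CPM in Ctrl, on 12 to 29 counts per library.

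**Figure D3:**
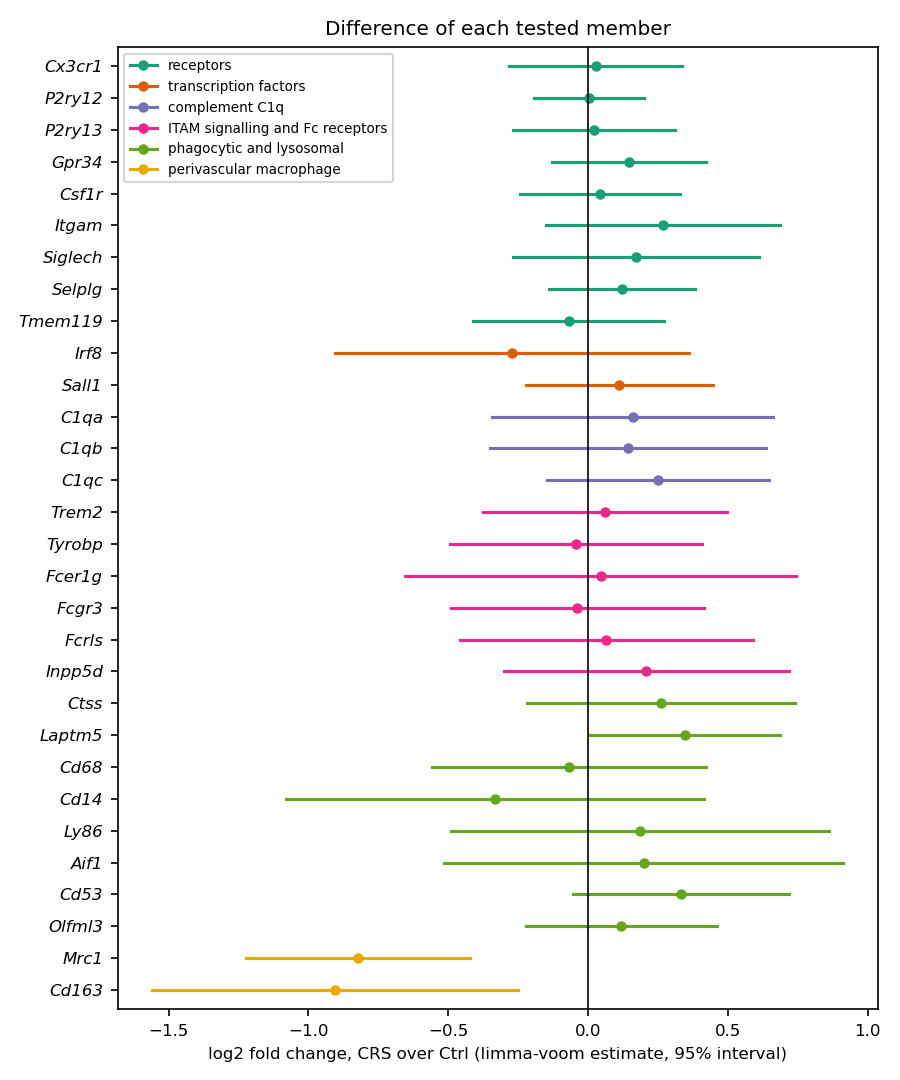
Log2 fold change, CRS over Ctrl, of the 30 tested members with the 95% interval of limma-voom, colored by role. The intervals of Mrc1 and Cd163 lie below 0, that of Laptm5 starts just above it, and the other 27 span it; these intervals are not adjusted for the number of genes.

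Compared per length, as CPM per 1000 bases of annotated exon (RPKM), Ctss stood first of the 31 members, at 53.0 ± 10.6 in CRS and 44.7 ± 13.5 in Ctrl (SD, n = 3 each). C1qa was at 37.8 ± 10.5 RPKM in CRS and 33.6 ± 8.66 RPKM in Ctrl, and C1qb at 30.97 ± 5.86 RPKM in CRS and 28.5 ± 8.94 RPKM in Ctrl. P2ry12, C1qc and Csf1r came next with means over all 6 libraries of 20.1, 20.0 and 19.4 RPKM, which did not differ beyond their spread. Cx3cr1 and Tmem119 had means of 11.6 and 8.89 RPKM. The median over tested genes with a matched length was 6.31 RPKM. Mrc1, Cd163 and Pf4 averaged 1.36, 0.442 and 0.404 RPKM, ranks 27, 30 and 31 of the members.

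Inside each group the members varied together. CRS replicate 3 was the highest CRS library for 26 of the 30 tested members and Ctrl replicate 2 the highest Ctrl library for 27. Both held for 25 members, or 83.3%, beside 10.7% of all tested genes. These libraries were singled out after the values were seen, so the shares are a description. They also had the most gene counts of their groups, and the part of depth was not tested. On a separate list of other microglial and myeloid genes both held for 20 of 29, or 69.0%. Both held for 2 of 8 astrocyte markers, 4 of 9 endothelial and mural markers, and 0 of 7 oligodendrocyte markers. Each part alone was also seen in other cell types. Ctrl replicate 2 was the highest Ctrl library for 7 of 7 oligodendrocyte markers, 5 of 9 endothelial and mural markers and 1 of 6 granule neuron markers. CRS replicate 3 was the highest CRS library for 0, 7 and 6 of them. Over all tested genes these shares were 30.7% and 30.8%.

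The spread was not the same for every gene. In CRS the highest library exceeded the lowest 1.19-fold for P2ry12, 1.37-fold for Cx3cr1, 1.67-fold for C1qa, 1.38-fold for C1qb and 1.5-fold for Ctss. In Ctrl these ratios were 1.03 for P2ry12, 1.22 for Cx3cr1, 1.59 for C1qa, 1.81 for C1qb and 1.72 for Ctss. The medians over tested members were 1.46-fold in CRS and 1.42-fold in Ctrl, beside 1.21-fold in CRS and 1.17-fold in Ctrl over all tested genes. Summed C1q over P2ry12, both in CPM, was 2.19, 1.95 and 2.56 in CRS and 1.76, 2.56 and 1.63 in Ctrl, so the highest library of each group had the same ratio.

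This spread bears on the comparison of the groups. Without Ctrl replicate 2, 11 of the 30 tested members did not overlap between the groups, beside 22.8% of all genes tested there. The 2 with CRS lower were Mrc1 and Cd163, as with all 6 libraries, and 9 were apart with CRS higher, against 0 with all 6 libraries. The 9 were C1qb, C1qc, Cd53, Csf1r, Ctss, Inpp5d, Laptm5, Olfml3 and Selplg. Ctrl replicate 2 was the highest Ctrl library for 27 of the 30, so leaving it out favors CRS higher by construction. The 22.8% covers both directions, and the share with CRS higher alone is not given here. Without CRS replicate 1, 2 or 3 the count was 4 in each case, beside 29.2%, 26.1% and 22.5% of all genes tested. It was 3 without Ctrl replicate 1 and 2 without Ctrl replicate 3, beside 24.3% and 23.7%. In none of these fits was a member called.

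**Figure D4:**
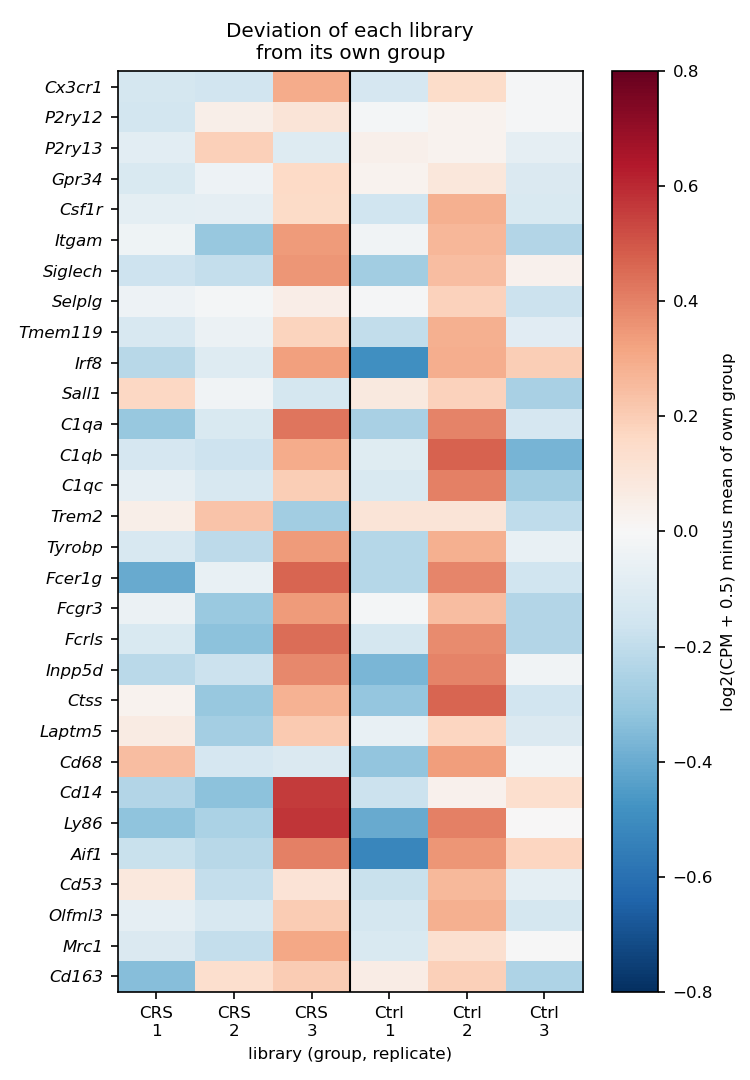
Deviation of each library from the mean of its own group, in log2(CPM + 0.5), for the 30 tested members, with CRS replicates left of the line and Ctrl replicates right of it. The columns of CRS replicate 3 and Ctrl replicate 2 are red for most genes, with P2ry12 among the palest, at 0.101 and 0.027. In CRS replicate 3, P2ry13, Sall1, Cd68 and Trem2 are blue, with Trem2 lowest at -0.279.

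Genes around the microglial pathways were read from lists with no member in them. Of 29 tested genes in the list of other microglial and myeloid genes, 0 passed, and the median log2 fold change was 0.08. Among those with the smallest p were Coro1a, an actin regulator that neurons also express, at 0.18 (SE 0.09) and the lymphoid and myeloid factor gene Ikzf1 at 0.26 (SE 0.18). The summed level of the list was 512.2 to 600.3 CPM in CRS and 501.1 to 611.7 CPM in Ctrl.

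Among 11 tested ligands and partners of microglial receptors 0 passed and the median was 0.01. Cx3cl1, the fractalkine that CX3CR1 binds, was at 317 to 429 CPM in CRS and 331 to 391 CPM in Ctrl. Tgfb2, one of the transforming growth factor genes, was at 66.7, 41.1 and 48.1 CPM in CRS and 31.8, 30.1 and 30.1 CPM in Ctrl, a log2 fold change of 0.76 (SE 0.17; adjusted p = 0.246). Its highest value was in CRS replicate 1. Nrros, a microglial protein that anchors latent TGF-beta, was apart with CRS higher, at 0.39 (SE 0.18), and the neuronal microglia restraint gene Cd200 was at -0.24 (SE 0.11).

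In the list of other complement components and regulators 13 genes were tested, 0 passed and the median was -0.06. Sez6, a neuronal protein with complement-control domains, was at 120.4, 126.1 and 132.9 CPM in CRS and 78.4, 99.6 and 99.7 CPM in Ctrl, a log2 fold change of 0.45 (SE 0.10; adjusted p = 0.251). Csmd1 and Csmd3, large membrane proteins with the same kind of domain, were at -0.21 (SE 0.09) and -0.16 (SE 0.07), and C4b was at 33.4 to 54.3 CPM in CRS and 24.3 to 46.4 CPM in Ctrl. Of 13 tested kinases and adaptors that act after DAP12, 0 passed and the median was 0.14, led by Pik3cg at 0.43 (SE 0.18), the kinase gene Syk at -0.52 (SE 0.24) and the adaptor gene Blnk at -0.44 (SE 0.24).

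Genes that mark activated microglia gave no call. The list of disease-associated microglia genes had 17 tested members with a median of 0.04. Lpl, a lipase that neurons also express, was at 44.1, 16.8 and 21.6 CPM in CRS and 16.3, 11.8 and 13.1 CPM in Ctrl, a log2 fold change of 1.01 (SE 0.34) led by CRS replicate 1. Spp1 was at -0.85 (SE 0.36) and Fth1 at 0.30 (SE 0.17), and the groups overlapped for both. Fth1 was at 623, 423 and 385 CPM in CRS replicates 1, 2 and 3 and at 344 to 426 CPM in Ctrl. The defining activation genes Cst7, Itgax and Clec7a were under 1 CPM in every library and were not tested.

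The list of inflammatory mediators had 12 tested genes of 23, a median of 0.06 and 0 calls. Casp1, the inflammasome protease, was at 2.18, 1.98 and 1.87 CPM in CRS and 6.17, 4.02 and 7.87 CPM in Ctrl. All CRS libraries lay below all Ctrl libraries, at -1.57 on the log2 scale (SE 0.33; unadjusted p = 0.000480, adjusted p = 0.202 by edgeR). The Toll-like receptor adaptor gene Myd88 was at 0.54 (SE 0.21) and the prostaglandin synthase gene Ptgs2, which neurons also express, at 0.63 (SE 0.28). Ptgs2 was highest in CRS replicate 1, at 52.3 CPM, against 21.5 and 37.5 CPM in CRS replicates 2 and 3 and 21.2 to 26.2 CPM in Ctrl. The cytokine genes Tnf, Il6 and Il1b were under 1 CPM in every library, and Il10 was listed at 0.

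**Figure D5:**
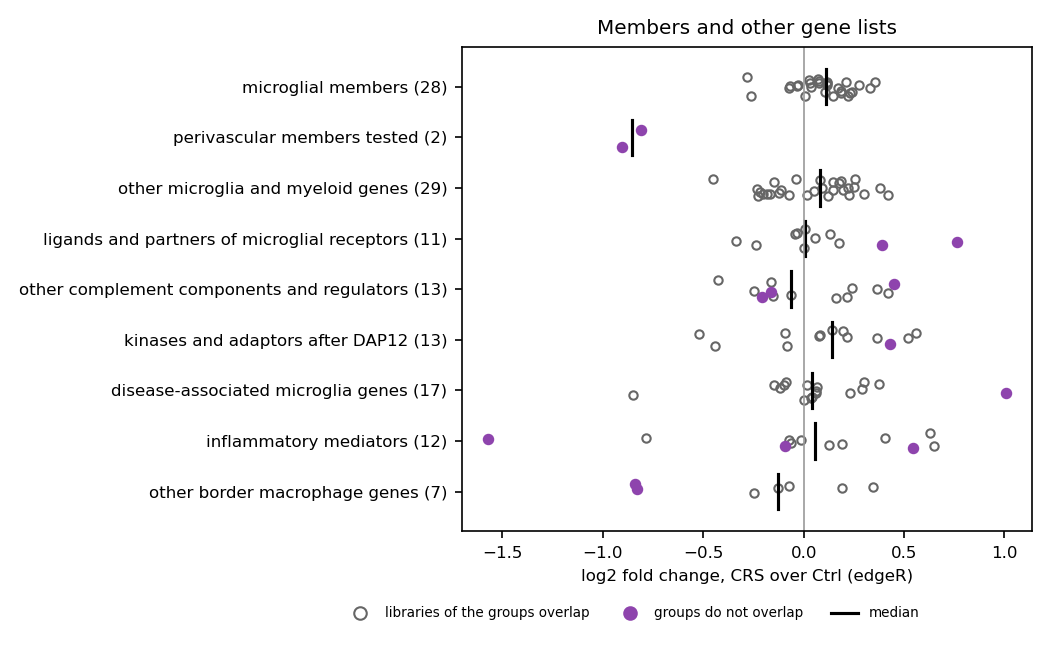
Log2 fold change, CRS over Ctrl, of the tested members and of 7 other gene lists, 1 point per gene with a bar at the median; filled points are genes whose libraries do not overlap between groups. The 28 microglial members center near 0.11, while Mrc1 and Cd163 lie below -0.8 beside F13a1 and Lyve1 of the border macrophage list. Cp, Stab1, Ms4a6b, Dab2 and Cd36 of that list lie between -0.25 and 0.34.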

How the data were processed

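For each library the authors deposited raw counts of reads per gene. The submitters' processing notes list, with no role or order, HTSeq 0.6.1, TopHat2 2.0.9, edgeR 3.12.0, Trimmomatic 0.33 and FastQC 0.11.3, and the builds mm10 and GRCm38. Per the labels' protocols, libraries were stranded total RNA after ribosomal RNA removal. How the counting treated strand, and its annotation, is not given in the sources used here. Rows of reads assigned to no gene (59.5% to 63.1% per library) or ambiguous (0.211% to 0.253%) were left out. Every pair of libraries differed beyond sampling noise.

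Genes were kept by filterByExpr of edgeR 4.0.16 in R 4.3.3, scaled by TMM, and CRS was compared with Ctrl over all tested genes by its quasi-likelihood test, two-sided. Standard errors and intervals come from limma 3.58.1 (voom). Each p-value sets the difference between the groups against the spread between these libraries, for which the number of animals is not stated. The tests were tried on simulated data. Alternatives were relative log expression or no scaling, 2 other filters, DESeq2 1.42.0, limma-voom, the replicate number as a block, and each library left out.

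Positions and exon lengths are from GENCODE M21 (GRCm38), matched by symbol for all 31 members; the counting annotation may differ. Members and lists were chosen with earlier results of these data known. Every member is described. Of each other pathway list the 3 genes with the smallest p are named, except 1 that is not reported here, and other genes named from lists were chosen after their values were seen. 3 counts are taken as the limit that a count of 0 allows, for counting error only.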

Additional observations from a re-analysis of the deposited data

How the results depend on the processing

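No member was called under any alternative run. Over all genes, the 4 calls became 107 with DESeq2 (39 higher, 68 lower), 1 with limma-voom (1 lower) and 0 with the replicate block (0 lower). Leaving out 1 library gave 0 to 41 calls (0 to 11 higher, 0 to 30 lower), with 41 without CRS replicate 1, 28 without CRS replicate 2 and 0 without each of the other 4. Members whose groups did not overlap numbered 2 to 11 when 1 library was left out, beside 22.5% to 29.2% of all genes tested. They numbered 3 with no filter on low counts, which adds Pf4, beside 12.6%. The median over the 30 tested members was -0.04 to 0.22 with 1 library left out and 0.08 to 0.10 otherwise. Whether the replicate numbers pair the libraries cannot be settled from 3 correlations. In their deviations from their group means, same-numbered libraries correlated at 0.139, -0.003 and 0.047. Of the 3 numbers, 1 correlated best with its own in both groups. With 1 library left out, log2 fold changes of 18 members changed sign. They ran from -0.123 to 0.122 for Cx3cr1, -0.039 to 0.079 for P2ry12, -0.075 to 0.089 for P2ry13, -0.046 to 0.195 for Csf1r, -0.02 to 0.328 for Siglech and -0.168 to 0.095 for Tmem119. For Sall1 they ran from -0.012 to 0.214, for C1qa from -0.077 to 0.408, for C1qb from -0.052 to 0.406, for Trem2 from -0.052 to 0.218 and for Tyrobp from -0.23 to 0.139. The ranges were -0.233 to 0.34 for Fcer1g, -0.224 to 0.118 for Fcgr3, -0.186 to 0.308 for Fcrls and -0.014 to 0.448 for Inpp5d. They were -0.221 to 0.139 for Cd68, -0.149 to 0.468 for Ly86 and -0.073 to 0.404 for Aif1. Of members that kept their sign, left-out libraries moved these by over 1.5 times: C1qc ran from 0.099 to 0.472, Ctss from 0.097 to 0.524, Cd14 from -0.702 to -0.072, Gpr34 from 0.064 to 0.208, Olfml3 from 0.007 to 0.285, Selplg from 0.036 to 0.223, Itgam from 0.091 to 0.433 and Irf8 from -0.497 to -0.119. With library totals as the only scaling P2ry12 was at -0.006. The cause of these changes was not tested. With 3 libraries a group and 11 to 37 counts per library for Cd163, precision is low for Cd163.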
